A study of Mus musculus with 2 samples.

Results

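The genes described here are 8 genes of myoblast fusion and cell-cell adhesion, chosen by name: the fusogens Mymk and Mymx, the cadherins Cdh15 and Cdh2, the adhesion molecule Ncam1, the metalloprotease Adam12 and the tetraspanins Cd9 and Cd81. All 8 were found among the 18193 genes with a named probe set, through 16 of the 45037 probe sets in the value table. A probe set is a group of short oligonucleotides that together give 1 value, and it can report more than 1 transcript. RNA came from cultured mouse skeletal myoblasts, 1 wild-type (WT) and 1 Foxj3 knockout (KO) culture, Foxj3 being a forkhead transcription factor gene. Both cultures were at passage 3, were kept in medium with 20% serum and were harvested in that growth medium at 80% confluency. Each was hybridised to 1 Affymetrix mouse array. The sources used here give neither the age, sex and strain of the animals nor the Foxj3 allele, and no separate clones or pools are named. With 1 array in each group there is no spread between cultures, so no difference below carries a test or an error, and each describes these 2 arrays.

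Skeletal muscle fibres form when mononucleated myoblasts stop dividing, align, adhere and merge their membranes. Adhesion is carried by cadherins and by immunoglobulin-type molecules such as Ncam1, while the merging itself needs 2 muscle-specific membrane proteins: myomaker, encoded by Mymk, which acts in the first mixing of the outer membrane leaflets, and the microprotein myomixer (also called myomerger), encoded by Mymx, which acts in opening the pore. Mymk and Mymx are switched on as myoblasts differentiate, whereas cadherins, Ncam1 and tetraspanins are already present on dividing myoblasts. The comparison therefore sets genes of the fusion step beside genes of the adhesion step.

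Signals are linear intensities, and a value under 47.04, the 40th percentile of both arrays pooled, was treated as under the detection floor. The median signal was 62.03 in WT and 63.94 in KO. Foxj3 itself read 495.51 in WT and 77.28 in KO by its brightest probe set, 6.41-fold lower, but 79.74 and 99.40 by another, and its remaining one was under the floor on both arrays. The probe sets differed in direction, and the sources used here do not say which of them lie in the deleted part. The marker genes of myoblasts were present: 7 of 8 were over the floor on the WT array and 8 of 8 on the KO array, with summed signals of 8236 and 8506. Among them, Myf5 read 731 and 724, Pax7 513 and 627, and Myod1, at least 2-fold higher in KO, 631 and 1751. Des (2024 and 1091) and Itga7 (659 and 430) were lower in KO, both under 2-fold. Met (621 and 711) and Chrna1 (3029 and 3104) were slightly higher. Msc was under the floor in WT (27.82) and read 69.05 in KO, so its ratio is a bound that does not settle whether it reached 2-fold.

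Of the 8 genes, 2 were at least 2-fold lower in the KO culture and 0 were at least 2-fold higher, each gene being represented by its probe set with the highest mean log2 signal. Over all 14597 measured genes, meaning that at least 1 array passed the floor, 6.72% were at least 2-fold lower and 3.73% at least 2-fold higher. Both lower genes were fusogens. The 6 adhesion, protease and tetraspanin genes lay under 2-fold, with log2 ratios (KO over WT) from -0.55 to 0.96. All 8 had their brightest probe set over the floor on both arrays, and precision is limited by having 1 array a group.

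**Figure D1:**
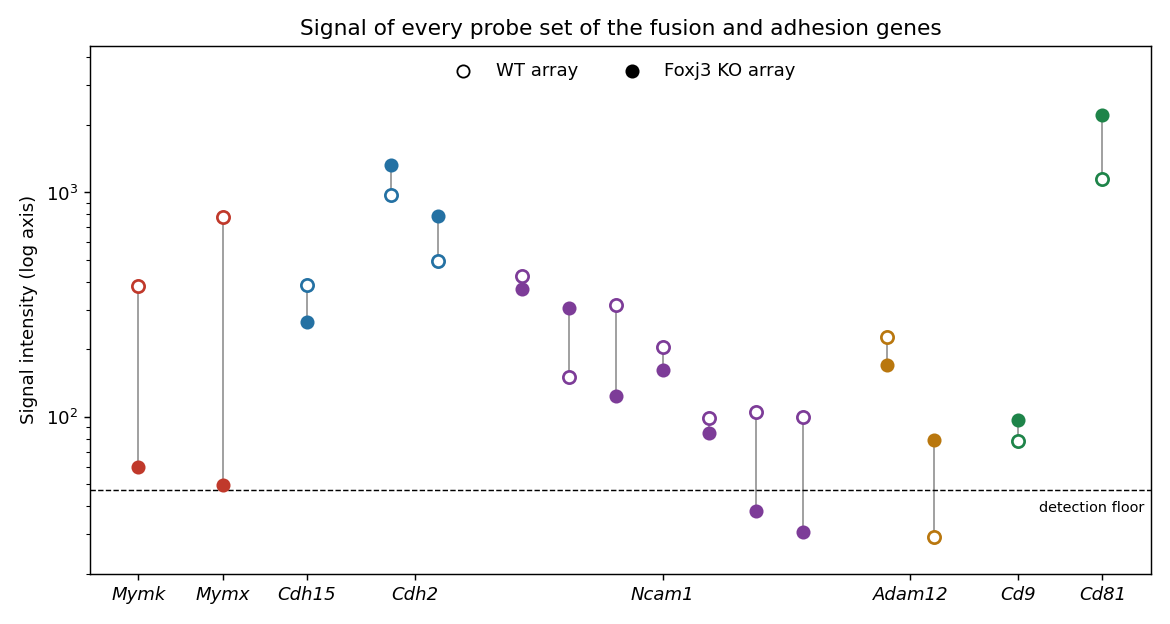
Signal intensity (log axis) of each of the 16 probe sets, WT array as open circles and Foxj3 KO array as filled circles, joined by a line; the dashed line is the detection floor of 47.04. Mymk and Mymx drop from well over the floor to just above it, while Cdh2, Cd9 and Cd81 are higher on the KO array.

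The fusogens read low on the KO array. Mymx read 775.76 in WT and 49.44 in KO, 15.7-fold lower (log2 ratio -3.97). Mymk read 381.67 in WT and 60 in KO, 6.36-fold lower (log2 ratio -2.67). Both are among 37 (0.253%) of the 14597 measured genes that were at least 6-fold lower. A 6-fold mark was not among the planned thresholds. With a floor at the 60th percentile the log2 ratio of Mymk was -2.14, which is under 6-fold.

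On the WT array both fusogen signals were clear, at 16.5 times the floor for Mymx and 8.11 times for Mymk. On the KO array they stood at 1.05 and 1.28 times the floor, so that what remains of either transcript there cannot be told from background by these signals. The folds are those of the signals as measured and do not give the size of the change in transcript. Within its own array, the Mymx probe set moved from percentile 96.9 to 41.0 of all probe sets, and the Mymk probe set from 90.5 to 47.8. These positions do not change when an array is multiplied by a constant factor. Each fusogen has 1 probe set, so neither ratio could be set against another probe set of the same gene. In RNA from a whole culture, fewer cells that express a gene and less RNA per cell cannot be told apart.

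Genes of muscle differentiation measured on the same arrays were lower too. Of 14 such genes, all measured, 12 (85.7%) were past 2-fold on the lower side and 0 on the higher, beside 6.72% and 3.73% of all measured genes. Their median log2 ratio was -2.30, beside -0.06 over all measured genes. This list was drawn up with earlier results of these data known, so its direction is no independent evidence. The transcription factor gene Myog, which encodes myogenin, read 1754 and 488, and Myh3, the embryonic myosin heavy chain gene, 4001 and 404. Myh8, the perinatal myosin heavy chain gene, read 554.54 in WT and less than the floor in KO, a ratio of at least 11.8-fold. Tnnt3, the fast troponin T gene, read 877 and 84.1. The log2 ratios of the fusogens, Myh8 and Tnnt3 rest on KO signals near or under the floor, which gives them no order. That limit does not hold for Myh3, whose KO signal of 404 was well over the floor. Whether the fusogens differed beyond the differentiation genes was not tested.

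The 2 cadherin genes differed in direction and neither reached 2-fold. Cdh15 encodes M-cadherin, the cadherin of satellite cells and myoblasts. It read 386.26 in WT and 263.87 in KO, 1.46-fold lower (log2 ratio -0.55), and it has 1 probe set. Cdh2, which encodes N-cadherin, a cadherin of muscle, heart and nerve cells, read 971.23 and 1331.96, 1.37-fold higher (0.46), and its other probe set read 495.94 and 787.50 (0.67). Both Cdh2 probe sets were therefore higher on the KO array, and their log2 ratios lay 0.21 apart. Over 10 processing alternatives the log2 ratio of Cdh2 ran from 0.19 (quantile scaling) to 0.56 (mean over probe sets). The difference between the cadherin genes was 1.01 on the log2 scale. A single probe set had an SD of 0.66 around the mean log2 ratio of its gene (12090 probe sets that pass the floor in both cultures, in genes with at least 2). A difference between 2 ratios varies more than that. Of 8255 such pairs of probe sets of 1 gene with different source sequences, 27.2% differed by at least 2-fold.

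Ncam1 is the gene with the most probe sets, 7, and they differed in direction. Ncam1 encodes the neural cell adhesion molecule, which has several membrane-bound and lipid-anchored forms made by splicing. By its brightest probe set, 1426864_a_at, it read 422.96 in WT and 371.09 in KO (log2 ratio -0.19). The probe set 1426865_a_at, which the annotation assigns to the same source sequence, read 150.84 and 305.17, 2.02-fold higher (1.02).

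The other 5 Ncam1 probe sets were all lower on the KO array. The probe set 1439556_at read 316.64 and 123.82, 2.56-fold lower (log2 ratio -1.35). The probe sets 1421966_at and 1425126_at read 105.40 and 100.24 in WT and less than the floor in KO, at least 2.24-fold and at least 2.13-fold lower. The remaining pair, 1450437_a_at and 1450438_at, lay close to even, at 203.89 and 162.26 (-0.33) and at 98.37 and 84.54 (-0.22).

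In all, 6 of 7 Ncam1 probe sets pointed down. At least 2-fold lower were 3 of them and at least 2-fold higher was 1, beside 6.29% and 5.44% of the 30505 measured probe sets. The SD of their log2 ratios was 0.82, which lies at percentile 76.8 among the 401 genes with at least 5 measured probe sets, where the median SD was 0.59. Having both a probe set at least 2-fold lower and one at least 2-fold higher was seen in 37 of those 401 genes (9.23%). The sources used here do not say which splice forms each probe set reports.

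**Figure D2:**
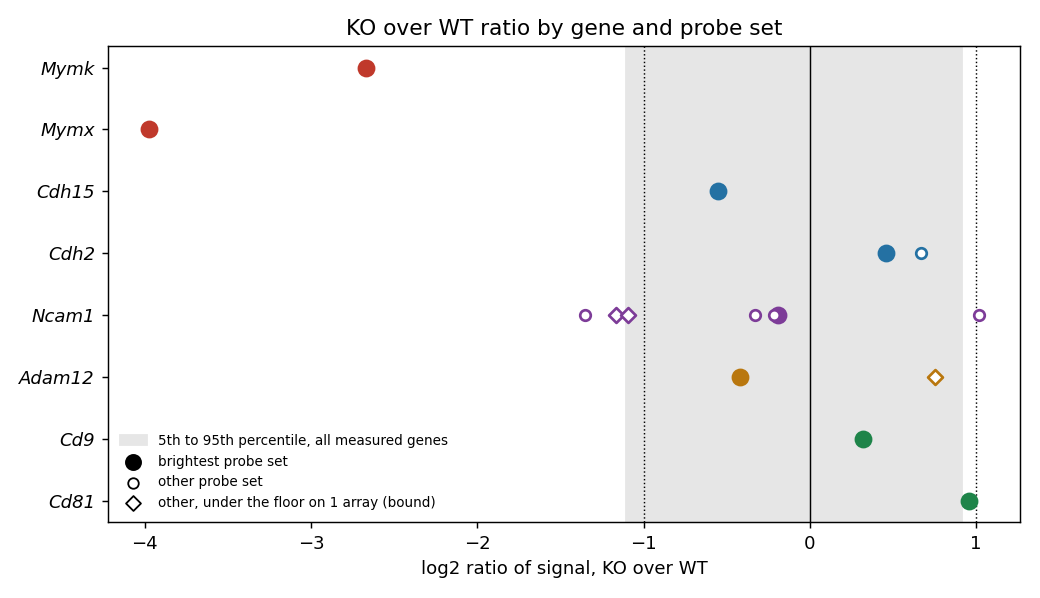
log2 ratio of signal, KO over WT, for each probe set of the 8 genes; large filled symbols are the brightest probe set of a gene, open circles its others, and diamonds those under the floor on 1 array, whose ratios are bounds. The grey band spans the 5th to 95th percentile of all measured genes (-1.10 to 0.91), the dotted lines mark 2-fold, and both fusogens lie far to the left of the band.

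The enzymes that build polysialic acid, a sugar chain that is attached to Ncam1 and weakens its adhesion, were both lower. St8sia2 read 285 and 129, 2.20-fold lower (log2 ratio -1.14), and its other measured probe set gave -0.35. St8sia4 read 133 and 62.5, 2.12-fold lower (-1.09), close to the floor on the KO array. Neither reached 2-fold when its probe sets were averaged (one that is under the floor in both cultures then counts as 0) or with a pseudocount equal to the floor. With a floor at the 60th percentile, 1 of them was still at least 2-fold lower.

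Adam12 encodes meltrin alpha, a transmembrane metalloprotease that was first studied for its part in myotube formation. By 1421172_at it read 227.32 in WT and 170.03 in KO, 1.34-fold lower (log2 ratio -0.42). The other probe set, 1421171_at, was under the floor on the WT array (29.16) and read 79.08 on the KO array, at least 1.68-fold higher. The log2 ratios of these 2 probe sets lay 1.17 apart and had opposite signs, and the mean over them was 0.17, so the arrays give Adam12 no direction. Both are assigned to the same source sequence. Over all genes, 2966 pairs of probe sets of 1 gene shared a source sequence and were over the floor on both arrays. Their log2 ratios had a median difference of 0.56, 25.7% of them differed by at least 2-fold, and 56.5% had the same sign.

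Both tetraspanin genes read higher on the KO array. Tetraspanins are small proteins that span the membrane several times and organise adhesion receptors into membrane patches, and Cd9 and Cd81 are known to restrain or balance fusion of muscle cells and macrophages and to act in sperm-egg fusion. Cd81 read 1147.26 in WT and 2225.38 in KO, 1.94-fold higher (log2 ratio 0.96). Its ratio lay at percentile 95.7 of all measured genes, which is rank 621 from the highest. With the planned scalings the log2 ratio of Cd81 was smaller, 0.74 with quantile, 0.81 with loess and 0.91 with median scaling. When both arrays were set to the same median over probe sets above the floor, an alternative chosen after seeing the data, it was 1.04, past 2-fold. Cd9 read 77.91 and 97.15, 1.25-fold higher (0.32), at 1.66 and 2.07 times the floor, and lay at percentile 75.6. Each has 1 probe set.

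Promoter windows were at hand for 3 of the 8 genes, Cdh15, Cd81 and Cd9. Outside the fusogens, Cdh15 and Cd81 had the lowest and the highest ratio of the 8 genes by brightest probe set, and their windows are shown for that reason. A window runs from 250 bases before to 50 after the start of the gene, from RefSeq (build GRCm38.p6), and is printed on the gene's strand. Capitals mark E-boxes, CANNTG, the motif bound by myogenic and other basic helix-loop-helix factors, which reads as an E-box on both strands. The Cdh15 window is chr8:122848124-122848423 on the plus strand and the Cd81 window chr7:143052500-143052799 on the plus strand.
Cdh15: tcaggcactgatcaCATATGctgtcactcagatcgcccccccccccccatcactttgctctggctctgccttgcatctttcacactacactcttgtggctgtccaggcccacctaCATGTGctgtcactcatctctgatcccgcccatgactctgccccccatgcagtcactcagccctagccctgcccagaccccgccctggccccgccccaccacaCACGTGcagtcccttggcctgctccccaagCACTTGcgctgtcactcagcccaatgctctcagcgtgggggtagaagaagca
Cd81: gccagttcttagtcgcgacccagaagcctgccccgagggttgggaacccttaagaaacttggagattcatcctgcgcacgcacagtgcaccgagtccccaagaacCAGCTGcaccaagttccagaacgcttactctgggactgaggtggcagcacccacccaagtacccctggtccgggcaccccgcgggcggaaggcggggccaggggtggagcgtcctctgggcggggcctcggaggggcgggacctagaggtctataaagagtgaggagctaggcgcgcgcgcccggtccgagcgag

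The Cdh15 window holds 4 E-boxes, which start 236, 135, 32 and 2 bases before the start of the gene, a number that 6.49% of the 32851 mouse promoter windows reach or pass. The Cd81 window holds 1, at 145 bases before the start. That E-box is CAGCTG, a sequence that 16.3% of windows hold and the Cdh15 window does not. At least 1 E-box is found in 72.3% of windows. The window of Cd9 (chr6:125494711-125495010, minus strand) holds 3 E-boxes, of which 1 is CAGCTG, and 17.6% of windows hold at least 3. Searches on both strands for the MEF2 consensus (in 3.19% of windows) and for the forkhead core TAAACA (in 13.4%) gave 0 matches in these 3 windows. Windows of Mymk, Mymx, Cdh2, Ncam1 and Adam12 were not used here.

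Set side by side, the fusogens read lower than each other class. Their mean log2 ratio was -3.32, a 9.99-fold lower signal, beside -0.05 for the cadherins, -0.19 for Ncam1, -0.42 for Adam12 and 0.64 for the tetraspanins. Fusogens minus cadherins gave a difference of -3.27 on the log2 scale, fusogens minus Ncam1 -3.13, fusogens minus Adam12 -2.90 and fusogens minus tetraspanins -3.96. These differences rest on fusogen signals near the floor in KO, and a floor at the 60th percentile brought them to -2.61, -2.47, -2.24 and -3.22. The values of Ncam1 and Adam12 are those of the brightest probe set, while the probe sets of each differed in direction. With the mean over probe sets the differences were -3.33, -2.84, -3.49 and -3.96. With 2, 2, 1, 1 and 2 genes in the classes these are descriptions and were not tested.

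**Figure D3:**
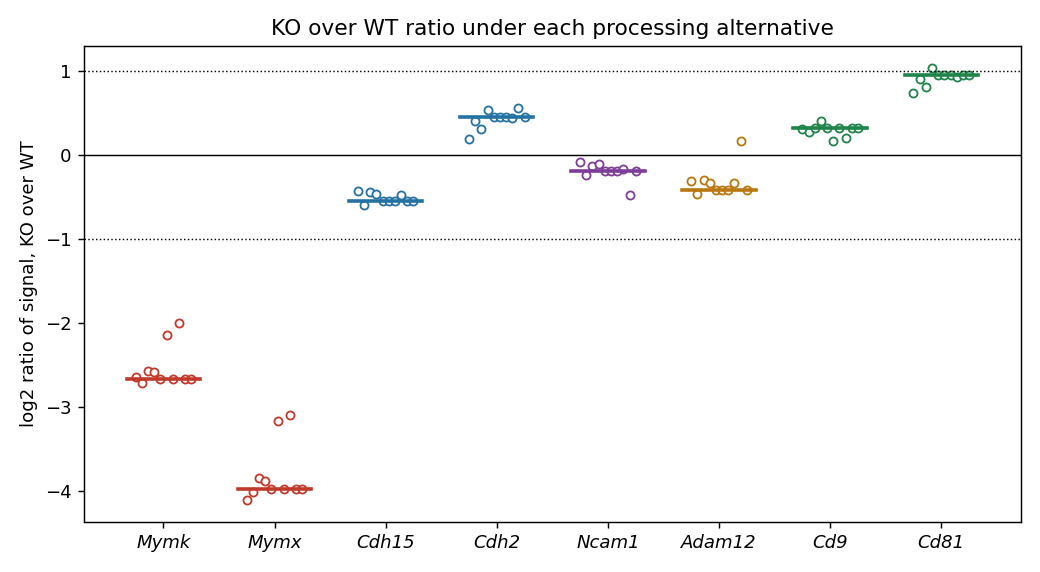
log2 ratio of signal, KO over WT, of the brightest probe set of each gene as reported (horizontal bar) and under each of 10 processing alternatives (open circles); dotted lines mark 2-fold. The fusogens stay at least 2-fold lower throughout, Adam12 crosses 0 with the mean over its probe sets, and Cd81 passes 2-fold under 1 of the alternatives. Some alternatives cannot change a gene that has 1 probe set over the floor on both arrays, as each fusogen has.

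The wider machinery of fusion did not share the fusogens' direction. This list holds 50 genes of membrane shaping, actin remodelling and signalling with a described part in myoblast fusion. Of 44 measured, 4 (9.09%) were at least 2-fold lower and 5 (11.4%) at least 2-fold higher, with a median log2 ratio of 0.06, which was -0.00 with median scaling. The share lower compares with 6.72% of all measured genes and the share higher with 3.73%. With the mean over probe sets, 2 were lower and 2 higher.

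The lower genes were led by Cav3, which encodes the caveolin of muscle cells and read 337 and 57.3, 5.88-fold lower. The KO signal of Cav3 was close to the floor, as for the fusogens, and no other probe set of it was measured. Plekho1, which encodes a casein kinase 2 interacting protein, read 326 and 127, 2.57-fold lower, and Ehd1, a gene of endocytic recycling, 450 and 198, 2.27-fold lower, 1 of its 3 further probe sets having the opposite sign. In the other direction stood the integrin gene Itgb1 (168 and 490, 2.92-fold higher), whose 2 other measured probe sets had log2 ratios of 2.18 and 2.25. Rac1, a small GTPase that drives actin assembly at the fusion site, read 611 and 1696, 2.78-fold higher, and its other measured probe set gave a log2 ratio of 0.98. Crkl, an adaptor protein gene that acts upstream of Rac1, read 84.9 and 219, 2.58-fold higher, with 1.40 at its other. The genes of this list past 2-fold that remain, named after their values were seen, were Wasl on the lower side (565 and 271, with 2 of its 3 further probe sets of opposite sign) and Il4ra (574 and 1359, both further probe sets having the opposite sign) and Elmo2 (69.95 and 151) on the higher side.

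**Figure D4:**
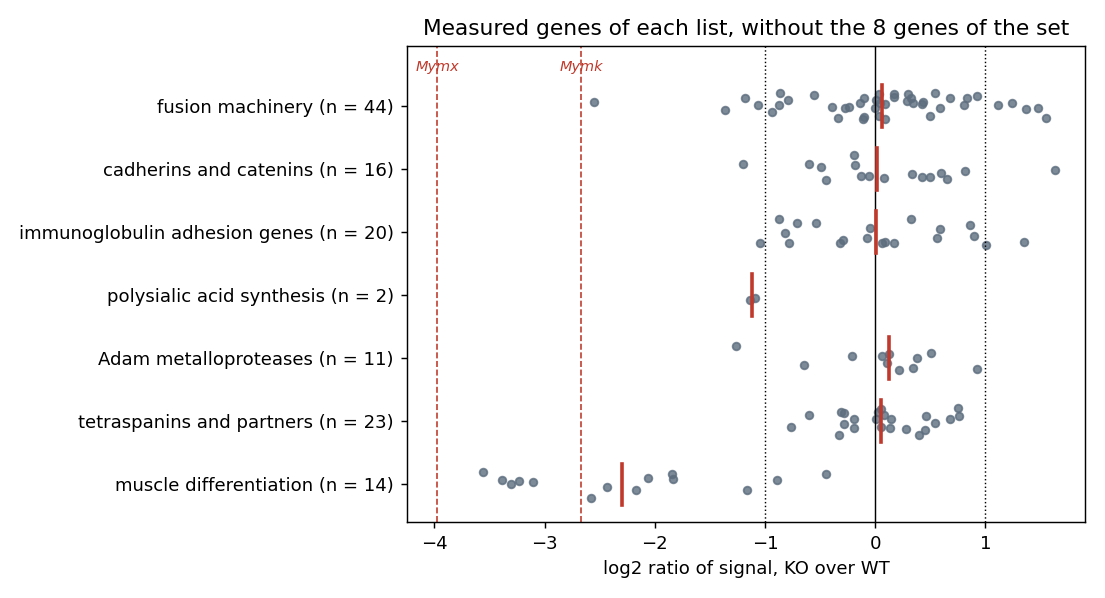
log2 ratio of signal, KO over WT, for each measured gene (points) of 7 lists, leaving out the 8 genes described here; red bars are list medians, dotted lines mark 2-fold and dashed red lines mark Mymk and Mymx. The fusion and adhesion lists centre near 0 except the polysialic acid pair, and the muscle differentiation genes (median -2.30) lie on the side of the fusogens.

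Cadherin, catenin and immunoglobulin-type genes lay on both sides of 0, with 8 genes below and 8 above in the first list and 10 and 10 in the second. Among 16 measured cadherin and catenin genes other than Cdh15 and Cdh2, 1 (6.25%) was at least 2-fold lower and 1 (6.25%) at least 2-fold higher, beside 6.72% and 3.73% of all measured genes. The median was 0.01, which turned to -0.01 with quantile, -0.03 with median and -0.04 with loess scaling. Cdh4, which encodes R-cadherin, read 196 and 85.6, 2.29-fold lower, and Jup, which encodes plakoglobin, was under the floor on the WT array and read 145 on the KO array, at least 3.09-fold higher. The lower call was lost with the pseudocount and the mean over probe sets, and the higher genes numbered 3 with a floor at the 20th percentile or no floor, 2 with the mean over probe sets and 0 with a floor at the 60th. Among 20 measured immunoglobulin-type adhesion genes other than Ncam1, 1 was at least 2-fold lower, L1cam (195 and 94.6, 2.06-fold), and 2 at least 2-fold higher, both from under the floor. These were Nfasc (at least 2.54-fold, 1 of its 2 further probe sets having the opposite sign) and the endothelial adhesion gene Esam (at least 2.01-fold). The call of L1cam was lost with quantile, loess and the added median scaling, with the pseudocount and with the mean over probe sets. Of the 2 higher calls, 1 was left with median scaling, loess scaling or the pseudocount and 0 with a floor at the 60th percentile. The median of this list, 0.01, turned to -0.08 with quantile, -0.03 with median and -0.04 with loess scaling.

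Of 11 other Adam genes, all measured, 1 (9.09%) was at least 2-fold lower and 0 at least 2-fold higher. This stands beside 6.72% and 3.73% of all measured genes. The lower call was lost with the mean over probe sets, and 1 gene was called higher with the added median scaling. Adam19, which encodes meltrin beta, the relative of Adam12, read 422 and 176, 2.41-fold lower, while its other measured probe set was at least 2-fold higher (log2 ratio 1.02). The Adam list had 3 genes below 0 and 8 above, with a median of 0.13. Of 23 measured tetraspanin and partner genes other than Cd9 and Cd81, 0 reached 2-fold in either direction, beside 10.4% of all measured genes. Their log2 ratios ran from -0.77 (Upk1b, a bound) to 0.76 (Upk1a), with 8 below 0, 15 above and a median of 0.05. Upk1b read 80.06 and 20.08, under the floor in KO, and with a floor at the 20th percentile or no floor the count of lower genes was 1. Without _s_at and _x_at probe sets it was 1 lower and 1 higher. The partners Ptgfrn (487 and 400) and Igsf8 (218 and 179), immunoglobulin-type proteins that bind Cd9 and Cd81, read slightly lower on the KO array, and were chosen after their values were seen. Over all fusion and adhesion lists together, 113 genes were measured, of which 9 (7.96%) were at least 2-fold lower and 8 (7.08%) at least 2-fold higher. Among all measured genes the shares were 6.72% lower and 3.73% higher.

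Among markers of other cells that a culture could hold, 0 reached 2-fold with values under the floor set to it. Dcn (24.06 and 67.49) and Cdh5 (28.30 and 63.12) were under the floor in WT, so their ratios are bounds and may be larger. Schwann and neural cells also hold Ncam1 and Cdh2. Of their 6 markers 4 are named on the array, and all 4 were over the floor on both, with summed signals of 515 and 510. Fibroblast markers were over the floor for 3 of 7 on the WT array and 5 of 7 on the KO array, summing to 1048 and 1386, and had a median log2 ratio of 0.49, with Lum and Thy1 under it on both. Macrophage and leukocyte markers were over it for 3 of 6 on each array, summing to 687 and 678, with Ptprc, Cd68 and Itgam under it on both. Endothelial markers were over it for 1 of 5 and 2 of 5, summing to 238 and 260, with Pecam1, Tek and Emcn under it on both. The part of these cells in the ratios above was not tested.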

How the data were processed

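Total RNA of 1 WT and 1 Foxj3 KO culture was labelled with biotin (10 ug RNA each) and hybridised to 1 array each, per the labels' protocols. The values deposited by the authors are linear signal intensities, 1 for each probe set in each sample; the sources used here do not say how they were summarised and scaled. The scanner records had 42 fields, of which 40 were the same. Means without the top and bottom 2% were 126 and 126, so values were used as deposited.

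Gene names came from the platform's annotation, with symbols updated by Entrez identifier in a RefSeq table (GRCm38.p6): 34945 had 1 symbol, 932 several and 9160 none. Values under the floor of 47.04 were set to it before log2, and a ratio with 1 array under it is "at least N-fold". The 8 genes and the 7 gene lists were chosen with earlier results of these data known; named were the 8 genes, and per list up to 3 in each direction past 2-fold, or the 2 largest. Lists leave out the 8 genes. No test was possible. The calculation was tested on simulated data. Alternatives were quantile, median and loess (span 0.3) scaling, a floor at the 20th or the 60th percentile, no floor (values under 1 set to 1), a pseudocount, the mean over probe sets, no _s_at or _x_at probe sets, and 1.5-fold and 3-fold thresholds; another median scaling was added later. Python 3.11.15, pandas 2.3.3 and statsmodels 0.14.6 were used.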

Additional observations from a re-analysis of the deposited data

How the results depend on the processing

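Over 10 alternatives, Mymk and Mymx stayed at least 2-fold lower, Cdh15 and Ncam1 below 0, and Cdh2, Cd9 and Cd81 above 0, each with no change of sign. Not all of these could differ. Mymk, Mymx, Cdh15, Cd9 and Cd81 have 1 probe set each, over the floor on both arrays. For them the lower floor, no floor, the mean over probe sets and leaving out _s_at and _x_at probe sets return the same ratio. A higher floor or a pseudocount cannot reverse their sign. Adam12 turned to 0.17 with the mean over probe sets, and Cd81 passed 2-fold (1.04) with the added median scaling alone. A pseudocount equal to the floor gave log2 ratios of -2.0 for Mymk and -3.09 for Mymx, and fusogen means lower than those of cadherins, Ncam1, Adam12 and tetraspanins by differences of -2.53, -2.38, -2.21 and -3.11. A floor at the 60th percentile, which puts both fusogens under it on the KO array, gave -2.14 for Mymk and -3.17 for Mymx. The class differences with that floor were -2.61, -2.47, -2.24 and -3.22 in the same order. Over all fusion and adhesion lists, the 9 genes at least 2-fold lower became 4 with the pseudocount, 2 with the mean over probe sets, 20 at 1.5-fold and 1 at 3-fold. The 8 higher became 4 with the higher floor, 5 with the mean over probe sets, 22 at 1.5-fold and 1 at 3-fold. Over all genes, the 981 lower became 485 with the pseudocount, 490 with the mean over probe sets, 2811 at 1.5-fold and 221 at 3-fold. The 544 higher became 873 with the lower floor, 353 with the higher, 900 with no floor, 313 with the pseudocount, 330 with the mean over probe sets, 1866 at 1.5-fold and 109 at 3-fold. Of genes past 2-fold, 64.3% were lower as reported, and 52.3% (776 lower and 708 higher) with the added median scaling. The causes were not tested. Ratios of genes near the floor, such as both fusogens on the KO array and Cd9 on both, are limited by signal over background. No paired analysis was possible because each group has 1 sample.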

Other observations

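Some adhesion and fusion genes looked level by their brightest probe set while others of their probe sets were far higher on the KO array. Vcam1, the vascular cell adhesion molecule gene, also a ligand of integrins on myoblasts, read 687 and 730 by its brightest probe set. By its 2 others it read 68.9 and 415 (log2 ratio 2.59) and 51.1 and 401 (2.97). Ctnnb1, which encodes beta-catenin, the partner of cadherins inside the cell, read 2222 and 2342 by its brightest probe set, 160 and 859 (2.42) by the next, and 8.10, under the floor, and 549 (a bound of 3.55) by the last. Crk, an adaptor gene of the same family as Crkl, read 511 and 745 by its brightest probe set and 58.4 and 414 (2.83) by another, while a further probe set of the same source sequence read 70.4 and 60.5 (-0.22).

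Of 62 genes of the fusion and adhesion lists with another measured probe set, 6 (9.68%) had one whose ratio differed at least 4-fold from that of the brightest: Adam19, Crk, Ctnnb1, Il4ra, Nectin3 and Vcam1. Over all 6251 genes with another measured probe set the share was 5.58%. In 5 of the 6 genes that probe set had the higher ratio of KO over WT, the exception being Il4ra, which read 574 and 1359 by its brightest probe set and 218 and 77.1 by another. The share with this direction over all genes is not given here, so it cannot be read as a trait of these genes. By brightest probe set, 6.72% of measured genes were at least 2-fold lower and 3.73% higher. Over all measured probe sets the shares were 6.29% and 5.44%. These genes were chosen after their values were seen, and the cause was not tested.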
